A study of Mus musculus with 7 samples.

Results

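The amino acid carriers described here are the genes of the solute carrier families SLC1, SLC6, SLC7, SLC36, SLC38 and SLC43, taken from the count table by gene symbol. The symbol rule kept names that end in a number and left out Slc7a11, and it found 58 genes among 40873, all of them protein-coding: 7 of SLC1, 19 of SLC6, 14 of SLC7, 4 of SLC36, 11 of SLC38 and 3 of SLC43. The rule uses no measured value, though it was set with earlier results of these data known. SLC6 also holds carriers of monoamines, creatine, taurine and GABA, which were kept as the rule has them, while Slc6a20a and Slc6a20b end in a letter and lie outside it.

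RNA was sequenced from choroid plexus of the lateral ventricles, pooled from wild-type CD-1 mouse embryos, an outbred stock. There were 3 libraries from embryos given red blood cells (RBC) and 4 from embryos given saline, collected at E15.5, 24 h after treatment. The red blood cells came from donor embryos of E14.5, whose blood was collected with sodium citrate and washed in saline. All libraries carry batch number 1, and the sources used here do not give how many embryos or litters went into a pool. The p-values therefore rest on the spread between libraries, which may be partly technical.

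The choroid plexus epithelium forms the barrier between blood and cerebrospinal fluid, and its amino acid carriers keep most amino acids lower in the fluid than in plasma. Carriers of SLC1, SLC6 and SLC38 mostly use the sodium gradient to bring amino acids into cells. Many SLC7 carriers are exchangers that reach the membrane only as light chains bound to a heavy chain, encoded by Slc3a2 or Slc3a1. SLC36 carriers are coupled to protons, and those of SLC43 mostly let amino acids pass down their gradient.

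Total counts ran from 4393860 to 8386928 per library. Levels are given as CPM (counts scaled to a common library size by TMM) for 1 gene across libraries, and per kilobase of exon (RPKM) when genes are compared with each other. The 10 markers of choroid plexus epithelium summed to between 18676 and 20093 CPM in RBC libraries and between 18840.2 and 23784 CPM in saline libraries, none at 0. Several libraries stood apart in markers of other cells. RBC 3 had the highest sums of 6 fibroblast, 7 endothelial and 5 pericyte markers, saline 4 had 1455 CPM of 7 hepatocyte markers where the other 6 libraries had between 1.93 and 19.3 CPM, and RBC 2 had 66.0 CPM of 6 neutrophil markers where the other 6 had between 2.09 and 16.2 CPM. The 9 macrophage markers summed to between 351 and 514 CPM in RBC libraries and between 224 and 296 CPM in saline libraries. The sums of 7 erythroid markers overlapped, at 1912 to 2272 CPM with RBC and 1849 to 2604 CPM with saline. In such bulk tissue, fewer cells of a type and less RNA per cell cannot be told apart.

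Promoter sequence is shown for 2 light chain genes of the SLC7 family whose libraries are described below, Slc7a10, which was lower in every RBC library, and Slc7a8, which was higher in RBC 1 and RBC 2. The sequences are the 250 bases before the annotated start, 5′ to 3′ on the strand of the gene, from RefSeq on GRCm38.p6, at chr7:35186135-35186384 (plus strand) and chr14:54781887-54782136 (minus strand). Capitals mark the GC box GGGCGG, searched on both strands.
Slc7a10: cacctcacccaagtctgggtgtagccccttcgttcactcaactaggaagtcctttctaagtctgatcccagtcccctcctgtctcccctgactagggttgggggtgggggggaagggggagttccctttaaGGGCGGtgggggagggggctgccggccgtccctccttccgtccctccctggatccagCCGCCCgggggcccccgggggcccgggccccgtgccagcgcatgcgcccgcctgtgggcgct
Slc7a8: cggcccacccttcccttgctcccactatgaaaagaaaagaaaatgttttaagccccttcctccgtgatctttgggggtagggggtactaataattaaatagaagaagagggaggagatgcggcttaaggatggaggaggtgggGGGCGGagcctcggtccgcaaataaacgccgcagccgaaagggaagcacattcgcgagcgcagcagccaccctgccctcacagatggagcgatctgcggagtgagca
Slc7a10 held the GC box at 2 places and 69.6% G and C, and Slc7a8 held it at 1 place with 55.6% G and C, where the median over all promoters was 52.4%. Promoters of 40 of the 58 genes matched by symbol, with 61 start sites. These are not the same genes as the 40 tested below, as they include untested genes such as Slc6a5. Slc6a15 and Slc38a1 had no promoter entry, so neither was searched. The median share of G and C was 57.2% over these 61 windows and 52.4% over all windows, and its part in the motif shares was not tested. The GC box, made only of G and C, lay in 47.5% of these 61 windows and in 32.7% of all 32851 windows of the same length. The E-box CACGTG lay in 14.8% and 6.02%, the OTX2 homeodomain core TAATCC in 3.28% and 6.25%, and the C/EBP-ATF element TGATGCAA, which amino acid shortage is known to act through, in 1.64% and 0.791%. In these windows the last was found for 1 gene, Slc7a7, and bases after the start or further before it were not searched. Both strands were searched for each motif, none of these motifs contains another, and a match is only a match of letters.

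Slc6a15, the sodium-coupled carrier of branched-chain amino acids and proline also called B0AT2, was by far the most abundant carrier. It averaged 671 RPKM with RBC and 815 RPKM with saline, rank 20 among the 14869 genes tested, and held between 49.6% and 55.1% of the counts of all 58 genes in RBC libraries and between 55.7% and 59.9% in saline libraries. Slc7a10, the light chain Asc-1 for small neutral amino acids, came next with 64.7 RPKM and 76.6 RPKM, at rank 773. Neither gene shared any part of its range over the 7 libraries with the gene below it in this order, and further down the same held only for Slc7a6 above Slc6a9 (8.79 and 6.02 RPKM). Below them, 7 genes averaged more than 20 RPKM over the 7 libraries: Slc38a10, Slc7a1, Slc38a3, Slc7a8, Slc38a2, Slc6a6 and Slc7a5. The ranges of each neighbouring pair among these 7 overlapped, so the order of neighbours is not fixed by these data. Genes further apart could still be told apart. Slc38a10 and Slc7a1, at 38.3 RPKM or more in every library, lay above Slc38a2, Slc6a6 and Slc7a5, at 35.4 RPKM or less. A further 13 genes lay between 5 and 20 RPKM, 12 between 1 and 5 RPKM and 24 at or below 1 RPKM.

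**Figure D1:**
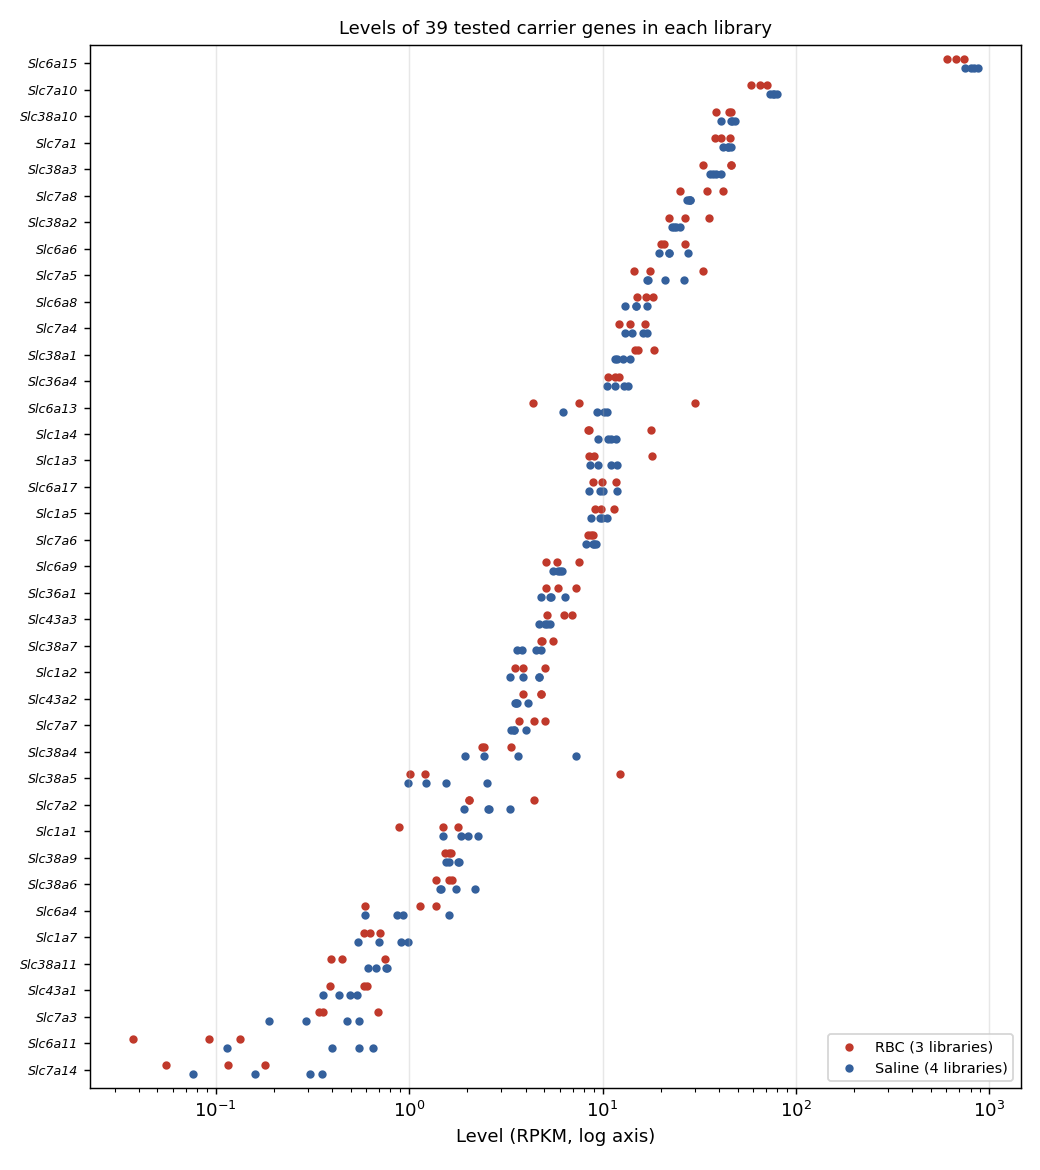
Levels of 39 of the 40 tested carrier genes, in RPKM on a log axis, with 1 point per library (RBC above, saline below each line). Slc6a15 stands about an order of magnitude above Slc7a10 in both groups, and the RBC 3 point of Slc38a5 and Slc6a13 stands to the right of the others.

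Of the 58 genes, 40 had enough counts to be tested and 18 did not. Those 18 had between 0 and 50 counts over the 7 libraries together. They include carriers that mark the apical border of kidney and gut (Slc6a18, Slc6a19 and Slc7a9, with at most 8 counts each), the transporters of noradrenaline and dopamine (Slc6a2 and Slc6a3) and the neuronal glycine carrier gene Slc6a5. Slc36a3, Slc6a21 and Slc7a12 had 0 counts in every library. A count of 0 in the shallowest library, saline 4, allows a level of up to 0.683 CPM, for counting error only. Slc6a14, the broad carrier ATB0,+, had 3, 15 and 1 counts in RBC 1 to 3 and 1, 0, 1 and 2 counts in saline 1 to 4, so most of its counts came from RBC 2. Slc6a12, the betaine carrier, had 2, 6 and 21 counts with RBC and 7, 4, 4 and 6 counts with saline, with the highest count in RBC 3. No fold is given for these 18 genes.

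Between RBC and saline, 0 of the 40 genes passed the edgeR quasi-likelihood test with Benjamini-Hochberg adjustment over all genes, where 0.0605% of all genes tested passed (9 of 14869, with 0.0404% higher and 0.0202% lower with RBC). The lowest adjusted p among the 40 was 0.140, for Slc38a1. At an unadjusted p under 0.05 there were 5 of the 40, or 12.5%, against 9.54% of all genes tested. Of these, 2 were higher (Slc38a1 and Slc43a2) and 3 lower (Slc6a15, Slc7a10 and Slc6a11), against 5.22% and 4.32% of all genes. Slc6a11 passed the filter on low counts only with saline 1, 2 and 3 all in the fit, the libraries where it was high, so its place in this count is no support for a difference. RBC and saline libraries did not overlap for 3 of the 40, or 7.5%, against 9.59% of all genes, with RBC above for 1 and below for 2 (4.96% and 4.63% of all genes). DESeq2 called 2, Slc6a15 and Slc38a1, where it called 1.86% of all genes, and limma-voom called 0 (5 at an unadjusted p under 0.05), where it called 0.0605%. The log2 fold change was above 0 for 24 of the 40 genes and for 49.9% of all genes, and its median was 0.07 against 0.00 over all genes. This lean did not hold in limma-voom, with 19 of 40 above 0 and a median of -0.0039, or without RBC 3, with 15 of 40 above 0 and a median of -0.12. By class, 3 of 3 SLC43 genes, 3 of 5 SLC7 light chains, 5 of 10 SLC38 genes, 2 of 5 cationic carriers of SLC7, 3 of 5 GABA, taurine and creatine carriers of SLC6 and 2 of 4 glutamate carriers of SLC1 were above 0, none of them past the threshold in edgeR.

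**Figure D2:**
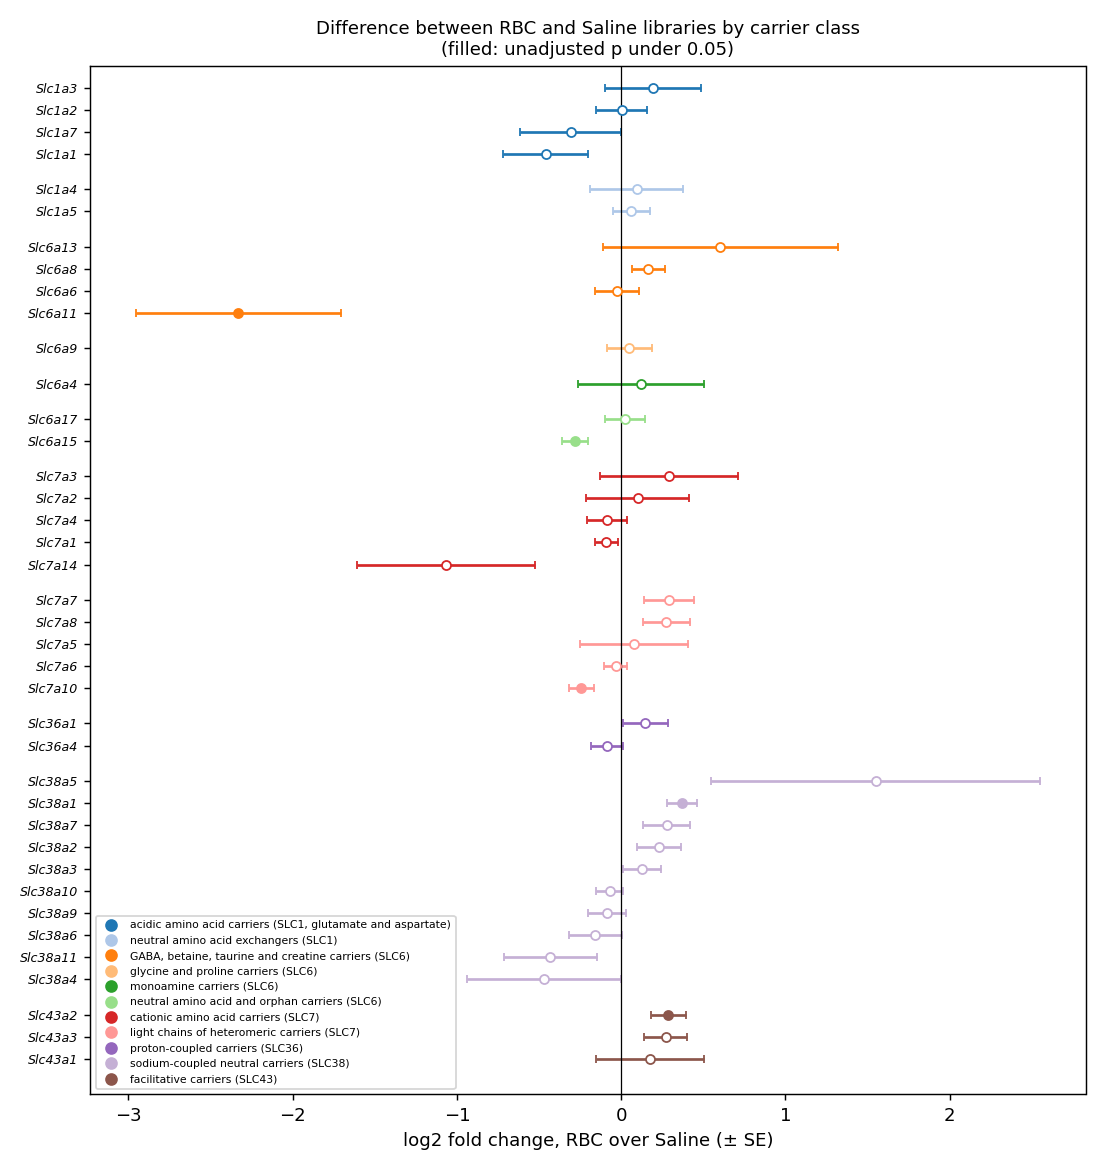
Log2 fold change of 39 of the 40 tested carrier genes, RBC over saline, with its standard error, grouped by carrier class. Filled points mark the 5 genes at an unadjusted p under 0.05, and most other points lie within about an error bar or 2 of 0.

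Slc6a15 was lower in every RBC library. It had 2828, 2556 and 3105 CPM in RBC 1 to 3 and 3154, 3406, 3496 and 3696 CPM in saline 1 to 4. RBC 3 and saline 1 came close to each other, and saline 4 was the highest. The means were 2829.8 ± 274 CPM (SD, n = 3) with RBC and 3438 ± 225 CPM (SD, n = 4) with saline, a ratio of 0.823. The log2 fold change was -0.28 ± 0.08 (SE), with a 95% interval of -0.46 to -0.10 and an edgeR adjusted p of 0.215. Slc6a15 fell in DESeq2 (adjusted p = 0.0289) and in the edgeR fit without RBC 3 (log2 fold change -0.35, adjusted p = 0.0432), and without both RBC 2 and saline 4 its log2 fold change was -0.17 (edgeR adjusted p = 0.693). The markers of choroid plexus epithelium leaned the same way, with 9 of 10 below a log2 fold change of 0 (median -0.08) and 0 past the threshold in edgeR, 1 in DESeq2 and 0 in limma-voom (3 at an unadjusted p under 0.05 in edgeR), and their part in the lower values of Slc6a15 and Slc7a10 was not tested. On GRCm39 Slc6a15 spans 103203320 to 103255240 of chromosome 10, on the plus strand. The other 57 genes together had 2308, 2599 and 2789.6 CPM in RBC 1 to 3 and 2506, 2494, 2350.4 and 2475 CPM in saline 1 to 4, so the groups overlapped.

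Slc7a10 was also lower in every RBC library, with 149, 162 and 134 CPM in RBC 1 to 3 and 183, 169, 177 and 174 CPM in saline 1 to 4. The highest RBC library, RBC 2, lay just below the lowest saline library, saline 2. Its log2 fold change was -0.24 ± 0.07 (SE), with a 95% interval of -0.41 to -0.08 and an edgeR adjusted p of 0.240, and the ratio was 0.845. Over the alternatives the edgeR, DESeq2 and limma-voom adjusted p for Slc7a10 lay between 0.158 and 0.513. Slc7a10 (chromosome 7, 34885520 to 34900539, plus strand) shares 10.3% of its exon bases with Lrp3 on the opposite strand, and the sources used here do not say whether counting used the strand. The same holds for Slc6a15 with 2.35% (6430590A10Rik), Slc6a9 with 13.6% (Ccdc24) and Slc38a10 with 6.79% (Gm11769).

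Slc38a1, a sodium-coupled carrier of glutamine and other neutral amino acids (SNAT1), was higher in every RBC library. It had 180.3, 217 and 175 CPM in RBC 1 to 3 and 137, 163, 140.3 and 149.6 CPM in saline 1 to 4. RBC 2 was the highest of the 7, and RBC 3 and saline 2 were the nearest libraries across the groups. The means were 191 ± 23.2 CPM (SD, n = 3) with RBC and 148 ± 11.7 CPM (SD, n = 4) with saline, a ratio of 1.29. The log2 fold change was 0.37 ± 0.09 (SE), with a 95% interval of 0.17 to 0.57 and an edgeR adjusted p of 0.140. Slc38a1 rose in DESeq2 (adjusted p = 0.0185), without the filter on low counts (edgeR adjusted p = 0.0224), where 0.522% of all genes passed, and without RBC 3 (edgeR adjusted p = 0.0393). Slc38a1 did not pass in the other alternatives, with an adjusted p of 0.176 in limma-voom, 0.376 in edgeR without saline 1, 0.418 without RBC 2 (log2 fold change 0.27) and 0.440 without both RBC 2 and saline 4. It spans 96469299 to 96541396 of chromosome 15, on the minus strand.

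Slc7a8, the light chain LAT2 that exchanges large neutral amino acids, split the RBC libraries. It had 270.0, 325 and 195 CPM in RBC 1 to 3 and 221, 213, 217 and 220.0 CPM in saline 1 to 4. The 4 saline libraries had an SD of 3.39 CPM, RBC 1 and RBC 2 lay above all of them and RBC 3 below all of them. The log2 fold change was 0.28 ± 0.15 (SE, edgeR adjusted p = 0.626). Without RBC 3 the log2 fold change of Slc7a8 was 0.45 ± 0.08 (SE, edgeR adjusted p = 0.0132), and without RBC 2 it was 0.10 (edgeR adjusted p = 0.947). RBC 3 was the only RBC library below the saline libraries. The higher value without RBC 3 follows from leaving it out and is no support for a difference. In the fit without RBC 3, 3 of the 40 genes passed (Slc6a15, Slc38a1 and Slc7a8), where 1.86% of all genes tested passed.

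Slc43a2, a facilitative carrier of large neutral amino acids (LAT4), had 36.5, 45.5 and 45.4 CPM in RBC 1 to 3 and 33.5, 34.0, 33.3 and 38.7 CPM in saline 1 to 4. Saline 4 lay above RBC 1, so the groups overlapped. The log2 fold change was 0.29 ± 0.11 (SE, edgeR adjusted p = 0.351). A gene on the opposite strand, Gm45606, covers 24.8% of its exon bases and had 47 counts in all. The other SLC43 genes had log2 fold changes of 0.27 ± 0.13 (Slc43a3, whose product carries purine bases, edgeR adjusted p = 0.567) and 0.18 ± 0.33 (Slc43a1, edgeR adjusted p = 0.942). Macrophage markers were higher in the same direction as Slc38a1, Slc43a2 and Slc43a3. Of these markers, 9 of 9 lay above a log2 fold change of 0 (median 0.75), with none at 0 counts. All 9 had an unadjusted p under 0.05 in edgeR, and 8 had every RBC library above every saline library. At the adjusted threshold 1 passed in edgeR, 8 in DESeq2 and 0 in limma-voom. The part of macrophages in the differences of these carriers was not tested.

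Slc6a11, the GABA carrier GAT3 of glia, was barely detected. It had 3, 1 and 3 counts in RBC 1 to 3 and 11, 14, 22 and 2 counts in saline 1 to 4, so saline 1 to 3 stood above the RBC libraries and saline 4 among them. The ratio of the summed counts, 7 with RBC and 49 with saline, was 0.183 after scaling to library size, with an exact 95% interval of 0.0697 to 0.405 that covers counting error only. The interval leaves out the spread between libraries, which was 2 to 22 counts in saline. As Slc6a11 passed the filter only through saline 1 to 3, neither the ratio nor its interval is support for a difference. The edgeR adjusted p of Slc6a11 was 0.176, and its fitted log2 fold change depends on the prior count. Markers of neurons and neural progenitors summed to 209.8, 124 and 219 CPM in RBC 1 to 3 and 242, 244, 219 and 178 CPM in saline 1 to 4, with 10 of 11 below a log2 fold change of 0 and none at 0 counts. Of these 11 markers, 0 had an unadjusted p under 0.05 in edgeR. Saline 4 was the lowest saline library both for these markers and for Slc6a11. RBC 3 and saline 3 were alike in the marker sum, at 219 CPM, but had 3 and 22 counts of Slc6a11. The part of such cells in the difference was not tested.

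**Figure D3:**
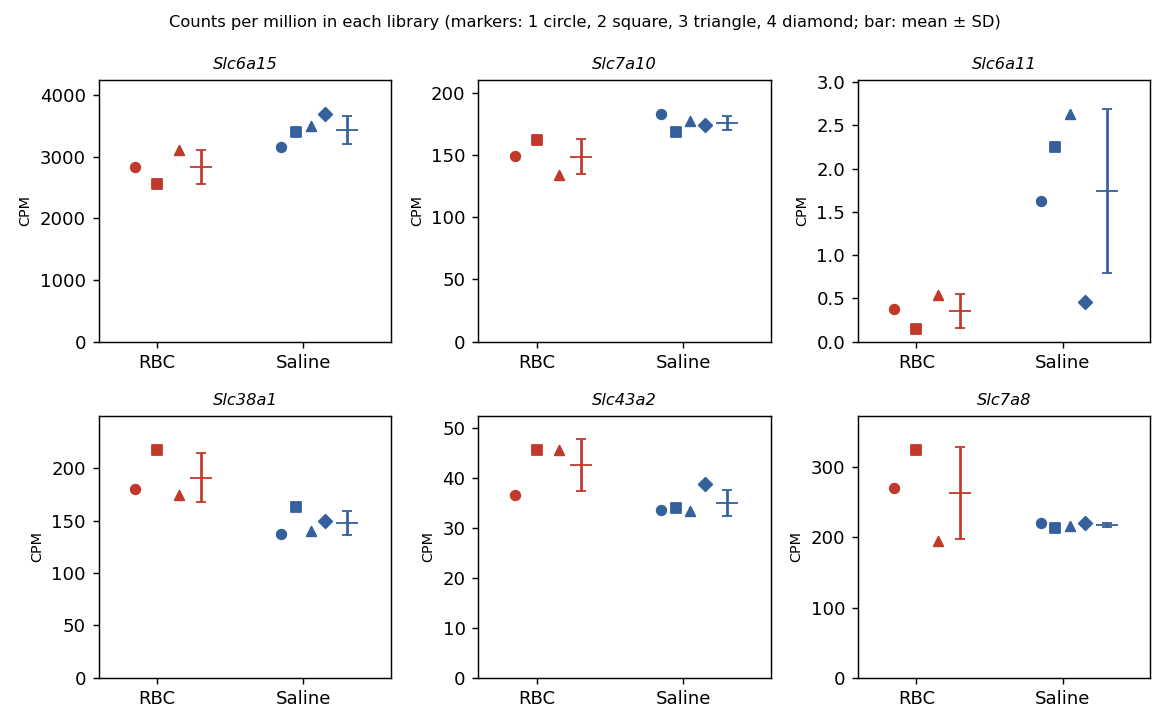
CPM of 6 carrier genes in each library, RBC left and saline right in each panel, with the mean and SD beside the points. Slc6a15 and Slc7a10 lie lower and Slc38a1 higher in all 3 RBC libraries, and for Slc7a8 the triangle of RBC 3 lies below the saline points while RBC 1 and RBC 2 lie above them.

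The other abundant carriers, like those described above, did not pass the edgeR test with all libraries. Slc7a1, the arginine and lysine carrier CAT1, had 282, 304 and 337 CPM in RBC 1 to 3 and 330.1, 342, 311 and 328 CPM in saline 1 to 4, with a 95% interval of the log2 fold change from -0.25 to 0.06. Slc38a10, a member of the SNAT family, had 213, 253 and 247 CPM in RBC 1 to 3 and 256, 264, 224 and 254 CPM in saline 1 to 4, with an interval of -0.25 to 0.11. For both genes RBC and saline libraries overlapped. Slc38a3, the glutamine carrier SNAT3, had 111, 155 and 156 CPM with RBC and 138, 126, 120.5 and 129.9 CPM with saline, with RBC 1 below and RBC 2 and RBC 3 above all saline libraries (interval -0.12 to 0.38). Slc38a2, the SNAT2 carrier that cells make more of when amino acids are short, had 103, 125 and 165 CPM with RBC and 107, 112, 109.6 and 118 CPM with saline (interval -0.07 to 0.53). RBC 3 was its highest and RBC 1 its lowest library. Single RBC libraries set the size of both differences. The log2 fold change of Slc38a2 was 0.38 without RBC 1 and 0.03 without RBC 3 (edgeR adjusted p = 0.215 and 0.925), and that of Slc38a3 was 0.28 without RBC 1 and 0.05 without RBC 3 (edgeR adjusted p = 0.251 and 0.915).

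Carriers of taurine and creatine also overlapped between the groups. Slc6a6, the taurine carrier, had 157, 163 and 209 CPM in RBC 1 to 3 and 173, 218, 153 and 173 CPM in saline 1 to 4. Slc6a8, the creatine carrier, had 67.1, 72.4 and 60.1 CPM in RBC 1 to 3 and 59.3, 59.4, 51.9 and 67.9 CPM in saline 1 to 4. Their log2 fold changes were -0.03 ± 0.13 and 0.17 ± 0.10 (SE, edgeR adjusted p = 0.980 and 0.673). Slc7a4, a relative of the cationic carriers, had 54.2, 65.0 and 47.6 CPM with RBC and 51.3, 66.4, 55.6 and 63.9 CPM with saline, a log2 fold change of -0.09 ± 0.12 (edgeR adjusted p = 0.909).

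Several carriers were high in RBC 3 alone, a pattern noticed after the values were seen. RBC 3 was the highest of the 7 libraries for 15 of the 40 genes, or 37.5%, against 16.7% of all genes tested. Its level was more than 1.5 times the mean of RBC 1 and RBC 2 for 11 of the 40, or 27.5%, against 7.3% of all genes. The 11 include Slc7a14, Slc6a11 and Slc38a11, which had few counts and were not high in RBC 3. They had 1.63, 0.543 and 4.53 CPM there, below their highest saline libraries at 3.23, 2.63 and 4.65 CPM. Slc38a5, the glutamine carrier SNAT5, had 1.88, 2.27 and 23.0 CPM in RBC 1 to 3 and 4.73, 2.89, 2.27 and 1.85 CPM in saline 1 to 4. Slc6a13, the GABA and taurine carrier GAT2 known from the leptomeninges and liver, had 12.8, 22.2 and 87.8 CPM with RBC and 30.9, 27.4, 18.3 and 29.9 CPM with saline. In both genes RBC 3 lay above every saline library and RBC 1 lay at or near the low end.

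The same library stood highest for carriers of other classes. Slc7a5, the light chain LAT1 that is abundant in brain endothelium, had 50.9, 62.0 and 116 CPM in RBC 1 to 3 and 93.1, 59.8, 60.5 and 73.7 CPM in saline 1 to 4. Slc1a3, the glutamate carrier GLAST, had 60.1, 56.9 and 119.7 CPM with RBC and 79.4, 63.2, 73.3 and 57.2 CPM with saline. Slc1a4, the serine and alanine exchanger ASCT1, had 33.0, 33.3 and 70.3 CPM with RBC and 46.3, 37.2, 43.4 and 41.9 CPM with saline, so RBC 1 and RBC 2 lay below and RBC 3 above all saline libraries. Slc7a2, the arginine carrier CAT2, had 18.6, 18.6 and 40.0 CPM with RBC and 30.0, 23.6, 23.3 and 17.4 CPM with saline. With all libraries the log2 fold changes of Slc38a5, Slc6a13, Slc7a5, Slc1a3, Slc1a4 and Slc7a2 were all above 0, from 0.08 (Slc7a5) to 1.55 (Slc38a5), and without RBC 3 all 6 were below 0, from -0.60 (Slc6a13) to -0.23 (Slc1a3). These 6 genes were named because RBC 3 was high, so lower values without RBC 3 follow from that choice. None of the 6 passed in either fit (lowest edgeR adjusted p = 0.151, for Slc1a4 without RBC 3).

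Fibroblast markers summed to 1583, 1333 and 2629 CPM in RBC 1 to 3 and 1725, 1756, 1697 and 1577 CPM in saline 1 to 4. Endothelial markers summed to 872, 781 and 1217 CPM with RBC and 997, 962, 943 and 946 CPM with saline, and pericyte markers to 426, 371 and 612 CPM with RBC and 470.4, 465, 455 and 416 CPM with saline. No marker of these 3 lists was at 0. RBC 3 was thus highest, and RBC 2 lowest, in each sum, and the part of these cells in the carrier values of RBC 3 was not tested. Outside the rule, Slc6a20a, a proline carrier gene, had 4.52, 8.47 and 26.6 CPM with RBC and 12.6, 5.46, 8.85 and 9.03 CPM with saline, again highest in RBC 3.

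**Figure D4:**
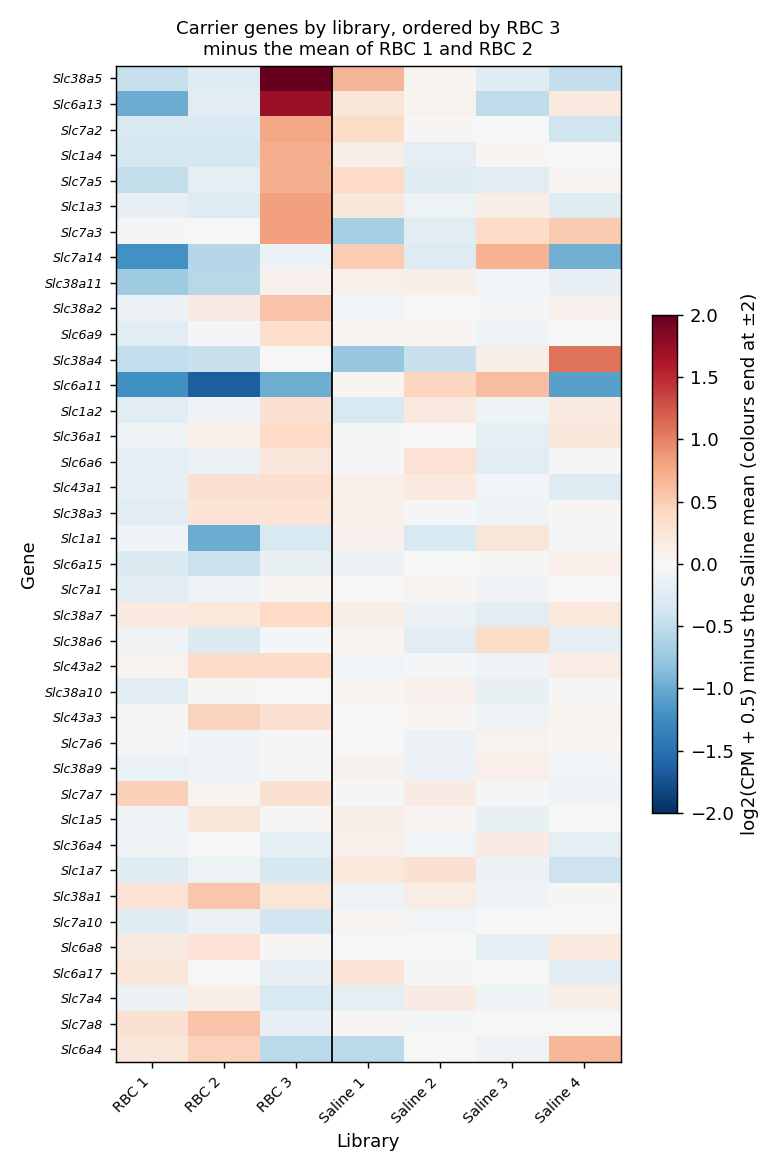
Level of 39 of the 40 tested carrier genes in each library as log2(CPM + 0.5) less its mean in saline libraries, with genes ordered by RBC 3 minus the mean of RBC 1 and RBC 2. The top rows, from Slc38a5 to Slc7a3, are red in RBC 3 and blue or pale in RBC 1 and RBC 2, and Slc38a4 is red in saline 4.

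Among the remaining SLC1 genes, Slc1a2, the glutamate carrier GLT-1, had a log2 fold change of 0.00 ± 0.15 (SE), Slc1a1, the glutamate carrier EAAC1, -0.46 ± 0.26, Slc1a7, a glutamate carrier known from retina, -0.31 ± 0.31 and the glutamine exchanger gene Slc1a5 (ASCT2) 0.06 ± 0.11. None was near the threshold in edgeR (adjusted p of 0.641 or higher). Slc1a1 had 6.66, 3.33 and 5.61 CPM in RBC 1 to 3 and 7.54, 5.62, 8.49 and 6.95 CPM in saline 1 to 4, with overlap between RBC 1 and saline 2. Of the other SLC7 genes, Slc7a7, the light chain y+LAT1 that exports cationic amino acids and is found in macrophages, ran from 12.6 to 17.1 CPM with RBC and from 11.3 to 13.6 CPM with saline, with RBC 2 among the saline libraries (log2 fold change 0.29 ± 0.15, edgeR adjusted p = 0.593), beside the macrophage markers given above, whose part was not tested. Among the RBC libraries Slc7a7 was highest in RBC 1 (17.1 CPM) and lowest in RBC 2 (12.6 CPM). The summed macrophage markers ran the other way there, lowest in RBC 1 (351 CPM) and highest in RBC 2 (514 CPM). Slc7a7 shares 6.85% of its exon bases with Oxa1l on the opposite strand. Slc7a6, the paralog y+LAT2, lay between 111 and 126 CPM in every library (-0.03 ± 0.07). Slc7a3 and Slc7a14 had under 4 CPM in every library.

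SLC38 and SLC36 genes with a known place in the lysosome did not share a direction. Slc38a9, the lysosomal arginine sensor upstream of mTORC1, had 17.5, 18.2 and 18.6 CPM in RBC 1 to 3 and 20.2, 17.6, 20.5 and 18.3 CPM in saline 1 to 4 (log2 fold change -0.09 ± 0.12, edgeR adjusted p = 0.897). Slc38a7, a lysosomal glutamine and asparagine exporter, had 0.28 ± 0.14 (edgeR adjusted p = 0.586), Slc36a1 had 0.15 ± 0.14 and Slc36a4 -0.09 ± 0.10. Slc38a4, the carrier SNAT4 that is abundant in liver, had 10.4, 10.7 and 14.8 CPM with RBC and 8.57, 10.8, 16.1 and 32.2 CPM with saline. Its highest library was saline 4, which also held the hepatocyte markers, and its log2 fold change was -0.47 ± 0.47 with all libraries and 0.01 ± 0.25 without saline 4. Of those 7 markers, 1 could be tested, and the part of such RNA in Slc38a4 was not tested. Slc38a6 and Slc38a11 had log2 fold changes of -0.16 ± 0.16 and -0.43 ± 0.28. In SLC6, Slc6a9, the glycine carrier GLYT1, had 0.05 ± 0.14, Slc6a17, a vesicular neutral amino acid carrier, 0.02 ± 0.12, and Slc6a4, the serotonin carrier, 0.12 ± 0.39.

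Among the genes that carriers work with, none passed the test. Slc3a2, the heavy chain of Slc7a5, Slc7a6, Slc7a7, Slc7a8 and Slc7a10, had 350.1, 376 and 344 CPM in RBC 1 to 3 and 353, 328, 315 and 363 CPM in saline 1 to 4, which gave 0.07 ± 0.07 on the log2 scale (SE, edgeR adjusted p = 0.834). Slc3a1, the other heavy chain, had between 1.63 and 2.66 CPM in every library. In the list of partners and other amino acid carriers, 0 of 17 genes tested passed and 3 had an unadjusted p under 0.05: Cltrn, the partner of kidney SLC6 carriers, at 0.44 ± 0.17, Slc25a15, the mitochondrial ornithine carrier, at -0.34 ± 0.15, and Slc25a29, a mitochondrial carrier of basic amino acids, at -0.57 ± 0.25 (edgeR adjusted p = 0.395, 0.490 and 0.490).

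In the other pathway lists 0 genes passed in edgeR, DESeq2 or limma-voom. The share at an unadjusted p under 0.05 over all genes was 9.54%, as above. Among 33 genes of mTORC1 amino acid sensing, 17 had a log2 fold change above 0 (median 0.01), and 1 had an unadjusted p under 0.05, Rragc, a Rag GTPase, at 0.27 ± 0.10 (edgeR adjusted p = 0.332). Tsc1 had -0.14 ± 0.08 and Sesn2 0.14 ± 0.12. Among 19 tested genes of the amino acid starvation response, 15 were above 0 (median 0.07), and 1 had an unadjusted p under 0.05, Nupr1, a stress-induced nuclear protein, at 1.18 ± 0.53 (edgeR adjusted p = 0.515), with 6.16 CPM in RBC 3 and at most 1.82 CPM in the other libraries. Mthfd2 had 0.41 ± 0.21 and Atf5 0.26 ± 0.13. Among 19 aminoacyl-tRNA synthetases, 15 were above 0 (median 0.08) and 0 had an unadjusted p under 0.05, with Gars at 0.17 ± 0.08, Sars at 0.14 ± 0.07 and Aars at 0.19 ± 0.10. Among 16 tested genes of glutamate, GABA and glycine metabolism, 6 were above 0 (median -0.06) and 0 had an unadjusted p under 0.05, with Gad1 at -1.30 ± 0.82, Gad2 at -1.12 ± 0.74 and Glud1 at -0.25 ± 0.18.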

How the data were processed

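RNA from pooled choroid plexus was made into directional poly(A) libraries, per the labels' protocols. The deposited table gives raw read counts per gene, made by the authors with cutadapt 2.5, STAR 2.6.1b and featureCounts 2.0.6 on GRCm39, per the submitters' processing notes. The sources used here do not give the annotation release or how strand and multi-mapping reads were handled, so genes that overlap on opposite strands are uncertain. The lines of 6 genes were broken in the table and left out. A further 6 lines without a gene name, which hold 0.107% of the counts, were left out too.

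For the other 40873 genes, edgeR 4.0.16 under R 4.3.3 compared the counts by its quasi-likelihood test (TMM, robust, two-sided, no block), after filterByExpr kept 14869 genes. P-values were adjusted by Benjamini-Hochberg over all of them and called at 0.05. A log2 fold change is RBC minus saline, standard errors come from the F statistic, and 95% intervals from its degrees of freedom. The common biological coefficient of variation was 13.7%. Marker sums use total counts.

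Alternatives were DESeq2 1.42.0, limma-voom (limma 3.58.1), other normalizations and count filters, a replicate block, and libraries left out. The scripts were first tested on simulated counts with known changes. Genes named with their values in every library are those at an unadjusted p under 0.05, those without overlap between groups and the 12 most abundant by RPKM. Further genes were named after their values were seen. The members and lists were chosen with earlier results of these data known. Of 179 list entries, 163 matched by symbol, 15 by synonym and 1 not at all. Promoters came from RefSeq. Figures used matplotlib 3.10.9. Of the members, 1 tested gene enters the counts but is not reported here by itself.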

Additional observations from a re-analysis of the deposited data

Results flagged for a closer look

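Saline 4 stood apart for Slc43a2, at 38.7 CPM. Saline 1 to 3 lay between 33.3 and 34.0 CPM. The gap to the nearest of them was 0.86 of the range of the group, above Dixon's 95% critical value for 4 samples. Of the 40 carrier genes examined in the saline group 1 met this criterion, where chance gives about 1 in 20 groups. The 3 RBC libraries are too few for this rule. Without saline 4 the log2 fold change of Slc43a2 was 0.34 (edgeR adjusted p = 0.296).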

How the results depend on the processing

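The number of carrier genes past the threshold was 0 in edgeR, 2 with DESeq2 and 1 without the filter on low counts, and between 0 and 3 with each library left out, with 3 only without RBC 3. The number over all genes was 9 in edgeR, 277 with DESeq2, 136 without the filter, 40 without both RBC 2 and saline 4, and between 1 and 283 with each library left out (17, 34 and 283 without RBC 1, 2 and 3; 1 without each of saline 1, 2 and 3; 5 without saline 4). The median over carrier genes lay between -0.12 (without RBC 3) and 0.15 (without RBC 1) with each library left out. Slc7a5 turned to -0.0077 with limma-voom and ran from -0.35 to 0.31 over the fits that left out a library. Slc6a6 turned to 0.014 without both RBC 2 and saline 4, and ran from -0.16 to 0.077 with each library left out. Slc38a10 ran from -0.12 to 0.0086 and Slc7a4 from -0.21 to 0.012. These values are log2 fold changes, and the causes were not tested. Same-numbered libraries did not deviate together (correlations of -0.008, -0.17 and -0.167 for numbers 1 to 3), and libraries of unlike number ran from -0.211 to 0.258. The numbers thus gave no sign of a pairing, though so few libraries cannot exclude one. With the replicate block and saline 4 left out, 2 genes and 0 carrier genes passed, and the same 6 libraries with no block gave 5 and 0. Slc6a15, Slc7a10, Slc38a1, Slc43a2 and Slc7a8 kept their direction in all 15 alternatives, and so did Slc7a1, Slc38a3, Slc38a2 and Slc6a8. For Slc6a15, Slc7a10 and Slc38a1 the libraries of the groups did not overlap, so leaving libraries out could hardly turn them. A kept direction is therefore no support for a difference. Slc6a11 was not testable without saline 1, 2 or 3, the libraries where it was high, or at a mean count of at least 50, so its direction in the other 11 is no sign of stability. At this depth the 18 untested genes, with at most 50 counts each over the 7 libraries, allow no statement on a difference.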
